A study of Mus musculus with 6 samples.

Results

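Scavenger and mannose receptors are cell-surface proteins with which macrophages bind and take up modified lipoproteins, microbes, glycoproteins, haemoglobin complexes and other debris. The 8 genes described here encode MARCO and SR-A (Marco and Msr1), the lectin-like receptor LOX-1 (Olr1), the lipid receptors CD36 and SR-BI (Cd36 and Scarb1), the mannose receptor CD206 (Mrc1), the haemoglobin scavenger receptor CD163 (Cd163) and stabilin-1 (Stab1). They were picked by symbol, and all 8 were found among 26835 genes. RNA was sequenced from macrophages grown out of the bone marrow of wild-type BALB/c mice aged 5 to 8 weeks. In the K7M2-EV group the cells were given extracellular vesicles (10 µg) shed by the mouse osteosarcoma line K7M2. In the PBS group they received phosphate-buffered saline, and both groups were collected after 24 h, with 3 biological replicates each. All cells had first been cultured for 6 days with 10% serum and the growth factor M-CSF at 25 ng/ml, so neither group is free of M-CSF, and the vesicles came from a single tumour line.

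Scavenger receptors are grouped by structure and not by ancestry. MARCO and SR-A are trimers with a collagen-like stalk, whereas CD36 and SR-BI are hairpin proteins anchored at both ends that bind fatty acids, oxidized lipids and high-density lipoprotein. In macrophages Marco is known as a gene induced by microbial products, and Mrc1, Cd163 and Stab1 are commonly used as markers of alternatively activated or tissue-resident cells. Mrc1 and Stab1 are also expressed by sinusoidal endothelium, and Cd36 by platelets and adipocytes.

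The 8 receptor genes changed in both directions. Marco, Msr1 and Olr1 were higher in K7M2-EV macrophages than in PBS macrophages, and Cd36, Scarb1, Mrc1 and Stab1 were lower, whereas Cd163 was below the filter on low values. Of all 13009 genes tested with limma, 54.0% were called at a Benjamini-Hochberg adjusted p under 0.05, 18.4% as higher and 35.6% as lower, so that a call by itself is common in these data. Scaling moves that split, to 3789 genes higher and 3066 lower after median-of-ratios scaling and 3135 higher and 3282 lower after quantile normalization, against 2395 higher and 4631 lower as deposited. Marco and Olr1 passed the filter (at least 1 FPKM in at least 3 libraries) only through their K7M2-EV libraries and could hardly have entered the test without a difference. Among the other 5 tested receptors, 1 was higher and 4 were lower. The groups did not overlap in any of these 5 genes, against 63.8% of all tested genes. They did not overlap in Marco and Olr1 either, but there the filter fixed this outcome. Nor did they in Cd163, which was not tested. FPKM values are fragment counts scaled to transcript length and to library depth, so levels can be compared between genes. In bulk RNA, a lower level from fewer expressing cells and one from less RNA per cell cannot be told apart.

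Marco is on chromosome 1 at 120474538 to 120505024, Msr1 on chromosome 8 at 39581685 to 39642673 and Stab1 on chromosome 14 at 31139013 to 31168641, all on the minus strand (GRCm38, GENCODE M21). Cd36 and Scarb1 are both on chromosome 5 on the minus strand, at 17781690 to 17888801 and 125277087 to 125341094. Cd163 and Olr1 are both on chromosome 6, at 124304656 to 124330527 on the plus strand and 129485244 to 129507165 on the minus strand. The FPKM values are per gene, over exons of 2 (Marco and Mrc1) to 13 (Stab1) annotated transcripts, so isoforms were not told apart.

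**Figure D1:**
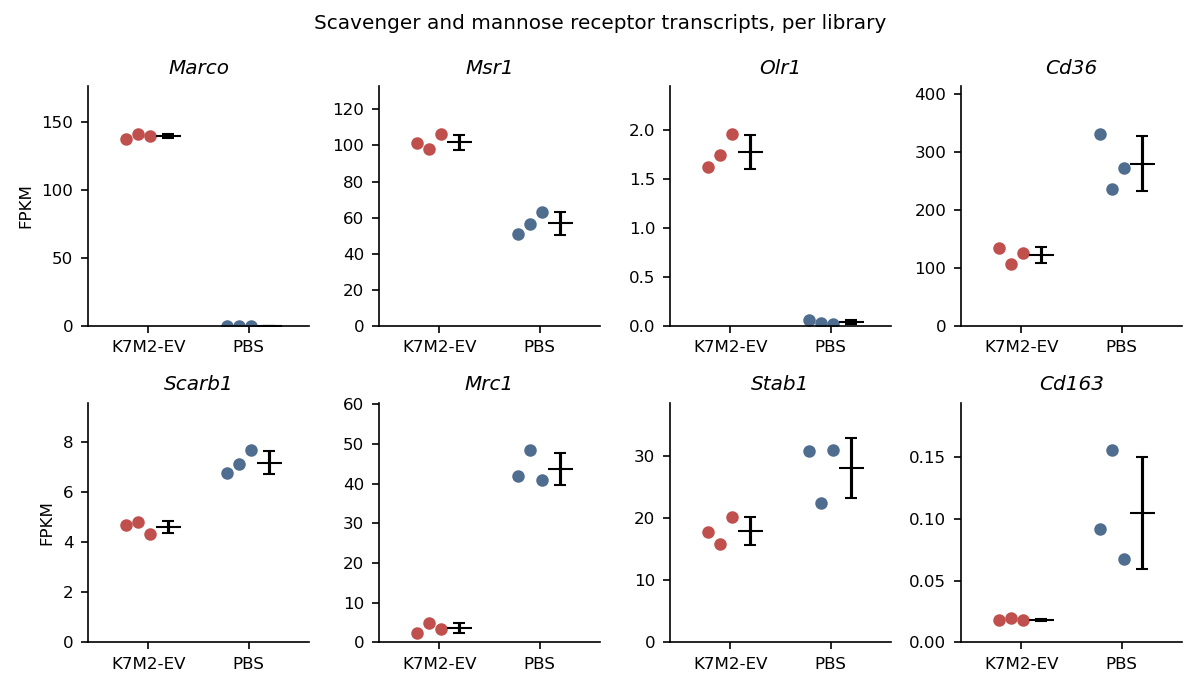
Levels of the 8 receptor transcripts in FPKM (vertical axes, linear and starting at 0, with a scale for each gene) in the K7M2-EV and PBS libraries. Each point is 1 library, and the bar beside each group is the mean with its SD (n = 3 per group); in all 8 genes the points of the groups stand apart, with Marco, Msr1 and Olr1 higher and the other genes lower in K7M2-EV.

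The upstream sequences of Marco and Olr1, the receptors with the widest rise, and of Mrc1, the one with the widest fall, are shown here so that the genes can be compared at their start sites. Each is the 250 bases before a RefSeq start on GRCm38.p6, given 5′ to 3′ on the gene's strand, with matches to the motifs named below in capitals.
Marco: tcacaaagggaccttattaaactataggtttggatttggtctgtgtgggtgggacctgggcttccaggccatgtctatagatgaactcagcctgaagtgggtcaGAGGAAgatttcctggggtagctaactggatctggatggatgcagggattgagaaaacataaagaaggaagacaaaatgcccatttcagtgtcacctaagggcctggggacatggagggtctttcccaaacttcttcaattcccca
Olr1: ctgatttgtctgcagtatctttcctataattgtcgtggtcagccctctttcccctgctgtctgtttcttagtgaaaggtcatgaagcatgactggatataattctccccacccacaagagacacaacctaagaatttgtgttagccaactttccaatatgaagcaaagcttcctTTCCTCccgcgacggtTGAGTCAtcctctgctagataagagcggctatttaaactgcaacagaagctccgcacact
Mrc1: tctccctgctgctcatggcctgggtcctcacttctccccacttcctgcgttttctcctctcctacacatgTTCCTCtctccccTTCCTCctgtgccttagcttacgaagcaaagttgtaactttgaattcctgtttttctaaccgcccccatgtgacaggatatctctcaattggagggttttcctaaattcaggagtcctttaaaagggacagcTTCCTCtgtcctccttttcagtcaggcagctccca
The Marco sequence lies at chr1:120505025-120505274 on the minus strand, that of Olr1 at chr6:129507166-129507415 on the minus strand and that of Mrc1 at chr2:14229164-14229413 on the plus strand. RefSeq windows of 300 bases, 250 before and 50 after a start, were matched by symbol for 6 of the 8 genes, namely Marco, Olr1, Mrc1, Cd36, Cd163 and Stab1. They were searched on both strands for GAGGAA (the core bound by PU.1, a macrophage lineage factor), TGANTCA (AP-1), TGACNNNGC (the antioxidant response element bound by NRF2), TTGCNNCAA (C/EBP), and, by longer patterns, for the STAT6 element, the PPAR direct repeat and the NF-κB consensus. GAGGAA or its complement was found once in Marco, Olr1 and Stab1 and at 3 places in Mrc1, the last of them 35 to 30 bases before the start, and in 28.3% of 32851 promoter windows. TGANTCA was found in Olr1 alone of the 6, at 60 to 54 bases before its start, and in 7.81% of all windows. The STAT6 element was found in the Cd36 window after the start and in 6.95% of all windows. That start is inside the gene span, with its 250 upstream bases at chr5:17835897-17836146 on the minus strand. The 5′ end of the Cd36 span at 17888801 was not searched. None of the 6 windows held the NF-κB consensus, which 4.51% of all windows held, nor the C/EBP (2.08%), NRF2 (12.4%) or PPAR (0.0396%) patterns. The matches describe these letters and not binding, and the motifs do not overlap in the printed sequences.

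Marco, whose product binds bacteria and unopsonized particles, went furthest. Its level was 138, 141 and 139 FPKM in the 3 K7M2-EV libraries and it was listed at 0 in all 3 PBS libraries. The K7M2-EV libraries differed little among themselves, with a mean of 139 ± 1.67 FPKM (SD, n = 3), a coefficient of variation of 1.20%. By its GENCODE M21 exon length, a single fragment of Marco would have been worth 0.0202 to 0.0243 FPKM at the depth of these libraries. The gene length behind the deposited values was not stated, so this range is approximate. A PBS level well above it would have been visible. No fold change is given against a group listed at 0. The difference passed the test (limma, Benjamini-Hochberg adjusted p = 8.07e-09). Marco entered that test only through its K7M2-EV libraries, so the p is no separate support for the rise. Marco ranked 272nd in level among all genes in K7M2-EV macrophages. None of 15 housekeeping genes was listed at 0 in any library.

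Msr1 encodes SR-A, the receptor for acetylated low-density lipoprotein and polyanions, and was expressed in both groups. It reached 101, 97.9 and 106 FPKM in K7M2-EV libraries, against 50.7, 56.7 and 63.2 FPKM in PBS libraries. The lowest K7M2-EV library thus stood above the highest PBS library. The mean was 1.79-fold higher in K7M2-EV, with a log2 fold change of 0.83 ± 0.089 (SE; 95% interval 0.62 to 1.05; limma, adjusted p = 0.000407). Olr1 encodes LOX-1, a receptor for oxidized low-density lipoprotein that endothelial cells also carry, and remained a minor transcript. It was at 1.62, 1.75 and 1.96 FPKM in K7M2-EV libraries and at 0.0654, 0.0337 and 0.0187 FPKM in PBS libraries. The spacing of these values is that of 163, 162 and 197 fragments in K7M2-EV libraries and 6, 3 and 2 fragments in PBS libraries. The log2 fold change of Olr1 was 1.42 ± 0.071 (SE; limma, adjusted p = 1.98e-05) on the log2(FPKM + 1) scale. Like Marco, Olr1 entered the test only through its K7M2-EV libraries, so this p is no separate support. The added 1 shrinks the change of so low a gene. With a pseudocount of 0.1 in place of 1 the same difference was 3.76. The ratio of the implied fragments, scaled to depth, was 46.6 (exact 95% interval 25.8 to 93.8, counting error only).

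The lipid receptors were both lower. Cd36, a fatty-acid and oxidized-lipoprotein receptor, was the most abundant of the 8 transcripts in PBS macrophages. It was at 135, 107 and 126 FPKM in K7M2-EV libraries, against 332, 237 and 272 FPKM in PBS libraries. Replicate 2 was the lowest library of both groups, and the groups were nevertheless far apart. The mean in K7M2-EV was 43.8% of that in PBS, with a log2 fold change of -1.18 ± 0.14 (SE; 95% interval -1.52 to -0.83; limma, adjusted p = 0.000697). Scarb1 encodes SR-BI, which exchanges cholesterol with high-density lipoprotein, and was a low transcript throughout. It was at 4.70, 4.80 and 4.32 FPKM in K7M2-EV libraries, against 6.77, 7.12 and 7.66 FPKM in PBS libraries. Its log2 fold change was -0.55 ± 0.064 (SE; limma, adjusted p = 0.000618), less than that of Cd36, and the ratio of Cd36 to Scarb1 levels was 26.8 ± 3.82 in K7M2-EV and 39.3 ± 8.50 in PBS libraries (SD, n = 3 each). These ratios ranged from 22.4 to 29.3 in K7M2-EV libraries and from 33.3 to 49.0 in PBS, without overlap, and were not tested.

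Mrc1, the mannose receptor gene, fell furthest. Its level was 2.49, 4.83 and 3.44 FPKM in K7M2-EV libraries, against 41.9, 48.3 and 40.9 FPKM in PBS libraries. Replicate 2 was the highest library of both groups. The mean in K7M2-EV was 8.22% of that in PBS, and the log2 fold change of -3.31 ± 0.18 (SE; 95% interval -3.75 to -2.87; limma, adjusted p = 2.78e-05) was the 12th lowest of 13009. The K7M2-EV libraries varied more in proportion, with a coefficient of variation of 32.8% against 9.25% with PBS. Mrc1 lies on chromosome 2 at 14229392 to 14332057 (GRCm38, plus strand), and it holds the microRNA gene Mir511 on the same strand. The table row of Mir511 was at 0, 0.571 and 0 FPKM in K7M2-EV libraries and at 3.45, 2.97 and 1.97 FPKM in PBS libraries (limma, adjusted p = 0.00111). That row passed the filter only through the PBS libraries, and fragments of the hairpin and of the Mrc1 precursor cannot be told apart in it. The mature microRNA was not measured; its RefSeq sequence is printed because it shares the host gene's transcript, with the seed (bases 2 to 8) in capitals; it lies at chr2:14261051-14261072 on the plus strand (GRCm38.p6).
mmu-miR-511-3p: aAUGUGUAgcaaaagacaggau

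Cd163, which takes up haemoglobin bound to haptoglobin, was near the floor in both groups. It was at 0.0179, 0.0194 and 0.0179 FPKM in K7M2-EV libraries and at 0.0916, 0.155 and 0.0672 FPKM in PBS libraries. The spacing of the values is that of 3 fragments in each K7M2-EV library and of 14, 23 and 12 fragments in PBS libraries. The ratio of the summed fragments, scaled to depth, was 0.180 (exact 95% interval 0.0778 to 0.371, counting error only). With no filter on low values Cd163 was called lower, with a log2 fold change of -0.12 (limma, adjusted p = 0.0411). In that fit the added 1 shrinks the change of values so low, and no other scaling was tried without the filter. Stab1 encodes stabilin-1, an endocytic receptor for the matrix protein SPARC and other ligands. It was at 17.7, 15.8 and 20.3 FPKM in K7M2-EV libraries, against 30.8, 22.4 and 30.9 FPKM in PBS libraries. The gap between the groups was small, since PBS replicate 2 lay just above the highest K7M2-EV library. Its log2 fold change was -0.61 ± 0.15 (SE; 95% interval -0.96 to -0.26; limma, adjusted p = 0.0126). The call was lost after median-of-ratios scaling (limma, adjusted p = 0.0711), with replicate 1 left out of both groups (0.106) and with replicate 3 left out of both (0.0592). The log2 fold change was -0.42, -0.53 and -0.62 in these 3 fits, the last 2 of which had 2 libraries per group. The gene span of Stab1 overlaps Nt5dc2 over its last 112 bases on the other strand. Nt5dc2 levels were 6.29 ± 0.869 FPKM in K7M2-EV and 11.5 ± 1.51 FPKM in PBS (SD, n = 3 each), and with no strand setting stated, fragments there cannot be assigned.

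**Figure D2:**
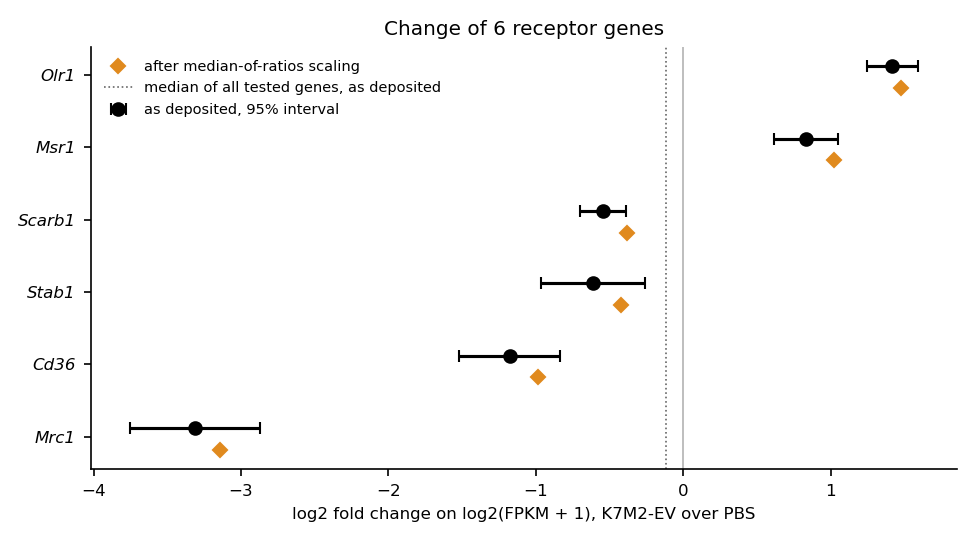
Log2 fold changes on the log2(FPKM + 1) scale, K7M2-EV over PBS, for the 6 tested receptor genes with a level above 0 in both groups. Black points are the values as deposited with 95% intervals from limma, diamonds are the values after median-of-ratios scaling, and the dotted line is the median of all tested genes at -0.12; Mrc1 at -3.31 stands farthest from it.

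The scale of the libraries bears on the smaller of these values. Over all 13009 genes the median change was -0.12 on the log2 scale as deposited and 0.03 after median-of-ratios scaling. Relative to the deposited median, Msr1 changed by 0.95, Cd36 by -1.06, Scarb1 by -0.43, Stab1 by -0.49 and Mrc1 by -3.20 on the log2 scale. After median-of-ratios scaling Msr1 was at 1.02, Cd36 at -0.98, Scarb1 at -0.38, Stab1 at -0.42 and Mrc1 at -3.14. None of these 5 receptors changed direction, and Stab1 alone of them lost its call.

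As a sum, the 8 transcripts differed little. They added up to 399.9, 374 and 402 FPKM in K7M2-EV libraries and to 462, 372 and 415 FPKM in PBS libraries, and these ranges overlap. The make-up of the sum differed in every library. Cd36 held 33.7%, 28.8% and 31.4% of it in K7M2-EV libraries and 71.8%, 63.7% and 65.6% in PBS libraries. Marco held 35.6% ± 1.85 in K7M2-EV (SD, n = 3) and was listed at 0 in PBS. Msr1 held 26.0% ± 0.609 in K7M2-EV and 13.8% ± 2.47 in PBS (SD, n = 3 each). Mrc1 held 0.924% ± 0.340 in K7M2-EV and 10.6% ± 2.08 in PBS. Stab1 held 4.57% ± 0.416 in K7M2-EV and 6.72% ± 0.702 in PBS. Shares are a description of these libraries, and the rise of 1 share lowers the others, so they were not tested.

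**Figure D3:**
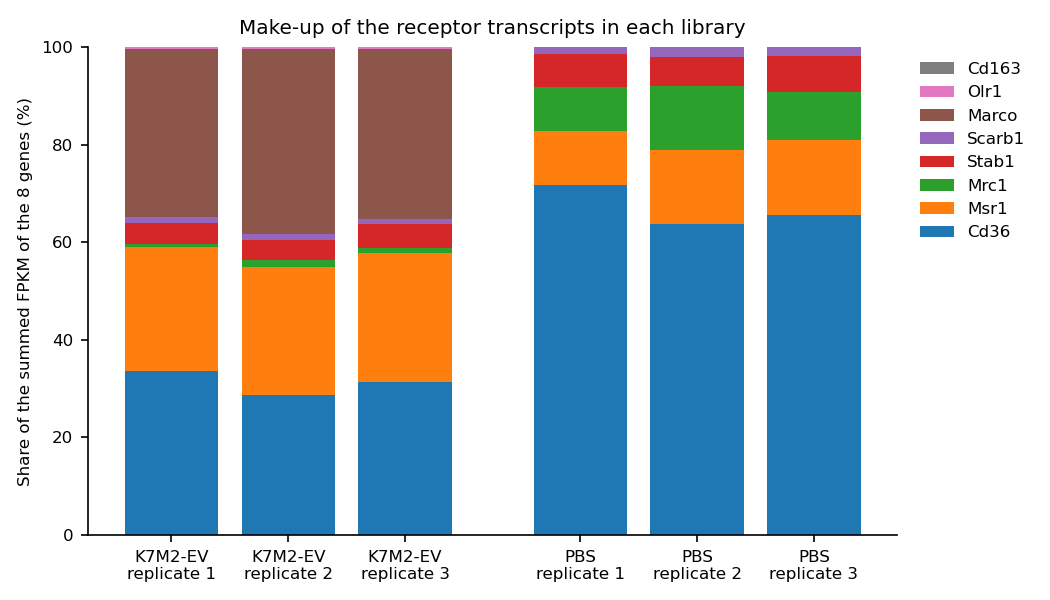
Share of each receptor in the summed FPKM of the 8 genes (vertical axis, percent) for the 3 K7M2-EV and the 3 PBS libraries. Marco, Cd36 and Msr1 each make up between 25.3% and 37.7% in the K7M2-EV libraries, whereas Cd36 alone makes up 63.7% to 71.8% in the PBS libraries.

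The order of the levels differed as well. In K7M2-EV macrophages Marco stood first, followed by Cd36, Msr1, Stab1, Scarb1, Mrc1, Olr1 and Cd163. In PBS macrophages Cd36 stood first, followed by Msr1, Mrc1, Stab1, Scarb1, Cd163, Olr1 and Marco. Neighbours in the order overlapped in their libraries only in K7M2-EV, between Scarb1 and Mrc1. Marco and Cd36 were nearly level there, with the lowest Marco library at 138 FPKM and the highest Cd36 library at 135 FPKM. Msr1 was at 0.834 ± 0.0799 of the Cd36 level in K7M2-EV libraries and at 0.208 ± 0.0480 in PBS libraries (SD, n = 3 each). Msr1 was at 40.5, 20.2 and 30.9 times the Mrc1 level in K7M2-EV libraries, and at 1.21, 1.17 and 1.55 times in PBS libraries. Cd36 ranked 307th in level among all genes in K7M2-EV and 118th in PBS, and Mrc1 ranked 7093rd in K7M2-EV and 825th in PBS.

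Other scavenger receptors, from a list of 21 symbols, were also divided. Values were at hand for 18 and 11 were tested, of which 3 were higher and 6 lower (median log2 fold change -0.54). Of all tested genes 18.4% were higher and 35.6% lower. Clec7a, the β-glucan receptor dectin-1, fell to 8.94 ± 0.254 FPKM in K7M2-EV, against 60.0 ± 16.1 FPKM in PBS (log2 fold change -2.58). Colec12, a collectin with scavenger function, fell to 54.5 ± 2.34 FPKM, against 133 ± 6.12 FPKM in PBS. Lrp1, a large endocytic receptor, was at 87.4 ± 2.57 FPKM in K7M2-EV and 200.2 ± 11.4 FPKM in PBS. Cd5l, a secreted protein with scavenger-receptor domains, was at 0.748 ± 0.178 FPKM in K7M2-EV and 2.96 ± 1.15 FPKM in PBS, and its call was lost with replicate 3 left out of both groups (log2 fold change -1.08 against -1.14; limma, adjusted p = 0.0563). Cxcl16, a membrane-bound chemokine that binds oxidized lipoprotein, rose to 58.5 ± 0.196 FPKM, against 14.2 ± 2.20 FPKM in PBS. Lgals3bp and Scarf1 rose by 1.49 and 0.91 on the log2 scale. Clec7a is also the tested gene nearest to Olr1 on one side, 12465 bases away, and Gabarapl1 is the nearest on the other side, at a log2 fold change of -1.07 (limma, adjusted p = 1.34e-05). These neighbours were looked at after the values were seen.

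The relatives of the mannose receptor and other endocytic lectins gave a different count. Of 15 symbols 12 had values and 7 were tested, with 5 higher and none lower, and their median was 1.20 on the log2 scale. The shares over all tested genes were 18.4% higher and 35.6% lower. Of the higher genes, Clec4e entered the test only through its K7M2-EV libraries. Below the filter, Clec10a and Mgl2 were lower in every K7M2-EV library than in any PBS library, and Cd209f was higher. Clec10a was at 0.0143 to 0.0775 FPKM in K7M2-EV and 0.196 to 0.248 FPKM in PBS libraries. Mgl2 was near the floor in both groups, at 0 in K7M2-EV and 0.0230 to 0.0295 FPKM in PBS libraries. Cd209f was at 0.373 to 0.664 FPKM in K7M2-EV and 0 to 0.00896 FPKM in PBS libraries. Clec4e, which encodes the mycobacterial glycolipid receptor Mincle, rose to 13.5 ± 1.38 FPKM in K7M2-EV, against 0.244 ± 0.0497 FPKM in PBS. Clec4a2 rose to 62.5 ± 4.10 FPKM, against 14.8 ± 2.76 FPKM in PBS, and Clec4d to 142 ± 11.2 FPKM, against 61.4 ± 5.15 FPKM in PBS. Clec4n, the gene of dectin-2, had a log2 fold change of 1.94. Mrc2 and Ly75, the family members closest in structure to Mrc1 that were tested, were not called. Their log2 fold changes were -0.05 (95% interval -1.04 to 0.94) for Mrc2 and 0.17 (95% interval -0.54 to 0.88) for Ly75, so that these data leave a wide range for both.

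Genes that handle the lipids taken up by Cd36, Scarb1 and Msr1 were mostly lower, 14 of 17 tested, with 3 higher (median log2 fold change -1.14). All tested genes were lower in 35.6% and higher in 18.4%. Of the 17 lipid genes 12 were lower and 3 higher after median-of-ratios scaling. Fabp4 and Fabp5, fatty-acid binding proteins, had log2 fold changes of -3.06 and -2.29. Nceh1, a cholesteryl ester hydrolase of macrophages, fell to 18.6 ± 0.733 FPKM in K7M2-EV, against 94.5 ± 10.6 FPKM in PBS. Lipa, the lysosomal acid lipase gene, fell to 174 ± 5.49 FPKM, against 566 ± 28.2 FPKM in PBS. Among the higher genes were Acsl1, which activates fatty acids (log2 fold change 2.31), and Abca1, a cholesterol exporter (0.87).

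Genes of haem and haemoglobin handling, the function of Cd163, gave 6 higher and 4 lower of 11 tested (median 0.55), and 6 higher and 3 lower after median-of-ratios scaling. As deposited, 18.4% of all tested genes were higher and 35.6% lower. Hp, the haptoglobin gene whose product carries haemoglobin to CD163, rose to 84.0 ± 10.7 FPKM in K7M2-EV, against 0.252 ± 0.119 FPKM in PBS. Fth1, the ferritin heavy chain gene, rose by 1.67 on the log2 scale, Slc11a1, a phagosomal metal transporter, by 1.33, and Blvrb, a biliverdin reductase, by 1.21. Slc40a1, the iron exporter ferroportin, was at 0.304 ± 0.0197 FPKM in K7M2-EV and 2.98 ± 0.758 FPKM in PBS. Flvcr1, a haem exporter, and Bach1, a haem-sensing repressor, had log2 fold changes of -0.81 and -0.63. Blvra had one of -0.25, a call lost after median-of-ratios scaling (limma, adjusted p = 0.390) and with replicate 3 left out of both groups (0.0890).

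Regulators known to act on these receptor genes were lower in 10 and higher in 6 of 21 tested (median -0.07), and 7 each way after median-of-ratios scaling. As deposited, 35.6% of all tested genes were lower and 18.4% higher. Pparg, the lipid-activated nuclear receptor known to induce Cd36, fell to 1.43 ± 0.268 FPKM in K7M2-EV, against 12.3 ± 0.413 FPKM in PBS. Irf4, a factor of alternative activation, was at 0.0561 ± 0.0223 FPKM in K7M2-EV and 1.40 ± 0.192 FPKM in PBS. Cebpa, a myeloid factor, fell by 1.53 on the log2 scale. Nr1h3, the liver X receptor alpha gene, rose to 16.2 ± 1.04 FPKM, against 3.36 ± 0.265 FPKM in PBS. Il4ra, the interleukin-4 receptor chain, rose to 18.8 ± 0.250 FPKM, against 4.83 ± 0.497 FPKM in PBS, and Cebpb and Maf rose by 1.54 and 1.15. Cd5l, Fabp4, Slc40a1, Irf4 and Klf4 passed the filter only through the PBS libraries, and Clec4e and Hp only through the K7M2-EV libraries. Klf4, counted among the 10 lower regulators, was at 0.641 to 0.920 FPKM in K7M2-EV libraries and 1.07 to 2.22 FPKM in PBS libraries. Its call was lost after median-of-ratios scaling (limma, adjusted p = 0.0581). None of these values tests whether a regulator acted on a receptor gene.

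Of 29 tested partners, trafficking proteins and shedding enzymes 13 were higher and 7 lower, while 9 were not called (median 0.20). Over all tested genes 54.0% were called, 18.4% as higher and 35.6% as lower. After median-of-ratios scaling 18 were higher and 3 lower, and with replicate 3 left out of both groups 7 were higher and 3 lower. Ehd1, a recycling endosome protein, rose to 160.2 ± 12.8 FPKM in K7M2-EV, against 14.3 ± 1.11 FPKM in PBS. Tlr2, which signals together with CD36, rose to 52.7 ± 1.97 FPKM, against 6.78 ± 0.121 FPKM in PBS, and Lyn, a kinase bound by CD36, by 1.64 on the log2 scale. Rhbdf2, which matures the shedding protease ADAM17, rose by 1.12. Dab2, a clathrin adaptor, fell to 4.51 ± 1.79 FPKM in K7M2-EV, against 27.8 ± 4.33 FPKM in PBS, and the tetraspanin Cd9 to 41.5 ± 3.44 FPKM, against 184 ± 8.70 FPKM in PBS. Fyn, another kinase of the Src family, fell by 0.68. Cd81 fell by 0.61, a call lost under 8 of 17 alternatives, with an adjusted p (limma) of up to 0.205 when replicate 3 was left out of both groups.

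**Figure D4:**
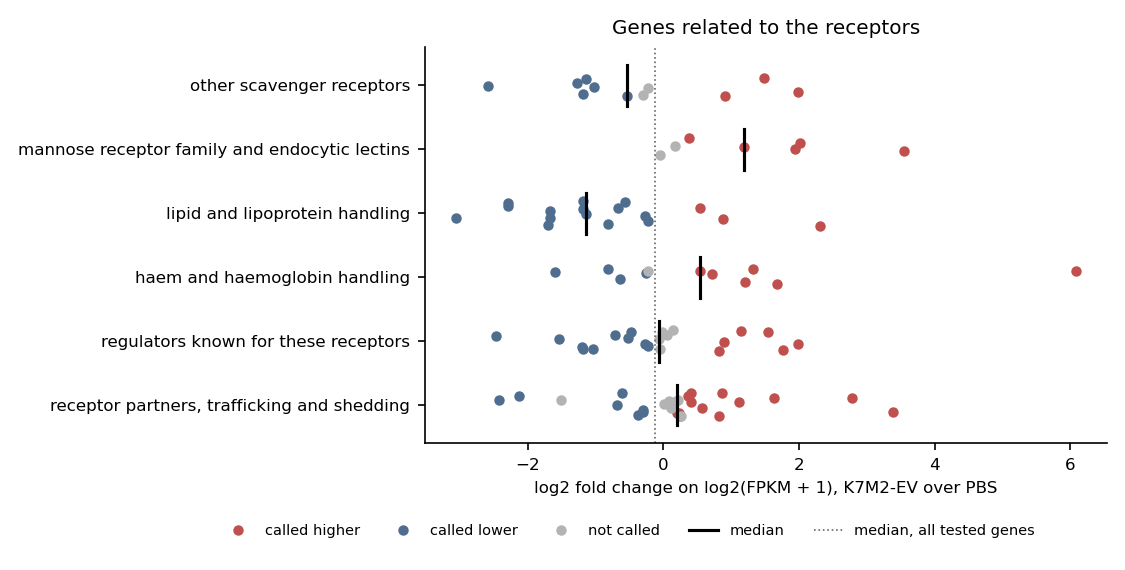
Log2 fold changes on the log2(FPKM + 1) scale, K7M2-EV over PBS, of the tested genes in 6 lists related to the receptors. Red points were called higher, blue points lower and grey points not called (limma, adjusted p under 0.05); black bars are list medians, from -1.14 for lipid handling to 1.20 for endocytic lectins, and the dotted line is the median of all tested genes at -0.12.

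The genes whose levels most resembled each receptor were found by the root-mean-square difference of log2(FPKM + 1) over the 6 libraries among 13009 genes. For Marco they were Fpr1 (0.150), H2-M2 (0.225) and Fpr2 (0.352). For Msr1 they were Lrrc59 (0.116), Plek (0.126) and Mapkapk2 (0.135). For Cd36 they were Apoe, Anxa1 and Ahnak, none differing by more than 0.207. Scarb1 was closest to Scap and Prkci (0.0558 and 0.0562), and Stab1 to Stap1 and Tmem189 (0.0996 and 0.102). For Mrc1 the nearest was Rgs2, at 2.89 FPKM in K7M2-EV and 46.9 FPKM in PBS, and its difference of 0.374 shows that no gene matched Mrc1 as closely as others matched Scarb1.

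The libraries carried macrophage markers, with Lyz2 at 10862 ± 902 FPKM in K7M2-EV and 3746 ± 401 FPKM in PBS, and Csf1r at 229.6 ± 17.1 FPKM in K7M2-EV and 179 ± 19.2 FPKM in PBS. Of 12 macrophage markers 8 were higher and 1, Cd68, was lower, where 18.4% of all tested genes were higher and 35.6% lower. The summed level of the macrophage markers was 13097 to 14576 FPKM in K7M2-EV and 4549 to 5546 FPKM in PBS. Of 10 endothelial markers with values only Vwf was tested, and it was lower. Their sum was 1.96 to 2.32 FPKM in K7M2-EV and 6.76 to 8.10 FPKM in PBS. Cdh5 was at 0.0596 ± 0.0225 FPKM in K7M2-EV and 0.0879 ± 0.0267 FPKM in PBS, and its groups overlapped. Lyve1 and Erg were at 0 in all PBS libraries and at most at 0.0266 and 0.0136 FPKM in K7M2-EV libraries. Below the filter, Stab2 was at 0.0368 to 0.0654 FPKM in K7M2-EV libraries and 0.322 to 0.533 FPKM in PBS libraries. Kdr (0.206 to 0.327 against 0.481 to 0.658 FPKM) and Tie1 (0.0820 to 0.185 against 0.202 to 0.331 FPKM) were also lower in every K7M2-EV library. Pecam1 was below the filter, at 0.467 to 0.782 FPKM in K7M2-EV libraries and 0.0694 to 0.137 FPKM in PBS libraries, and thus higher in every K7M2-EV library. The 2 adipocyte markers with values, Plin1 and Plin4, summed to 0.00900 to 0.0586 FPKM in K7M2-EV and 0.257 to 0.927 FPKM in PBS. Of 7 platelet markers 2 were tested, Pf4 and Ppbp, and both were higher, although Ppbp passed the filter only through the K7M2-EV libraries. The sum of the 7 was 128 to 158 FPKM in K7M2-EV and 31.5 to 37.7 FPKM in PBS. Pf4 made up most of both, at means of 140.5 FPKM in K7M2-EV and 33.8 FPKM in PBS. Itga2b was at 0.0781 ± 0.0379 FPKM in K7M2-EV and 0.108 ± 0.0762 FPKM in PBS. Below the filter, Gp6 was higher in every K7M2-EV library (0.197 to 0.282 FPKM, against 0 to 0.0126 FPKM in PBS). Treml1 was lower in every K7M2-EV library (0.286 to 0.349 FPKM, against 0.689 to 1.17 FPKM in PBS). Of 15 mesenchymal and osteosarcoma markers 8 were tested and 1, Runx2, which passed the filter only through the PBS libraries, was lower, and the sum was 234 to 624 FPKM in K7M2-EV and 165 to 372 FPKM in PBS. Of 7 dendritic cell markers only Itgax was tested, and it was lower. Their sums were 98.2 to 115 FPKM in K7M2-EV and 178 to 212 FPKM in PBS. Itgax made up most of both, at means of 105 FPKM in K7M2-EV and 197 FPKM in PBS. Below the filter, Ccr7 was at 0.342 to 0.609 FPKM in K7M2-EV libraries and 0 to 0.0237 FPKM in PBS libraries. Xcr1 was at 0.0373 to 0.0911 FPKM in K7M2-EV libraries and 0 to 0.0316 FPKM in PBS libraries, so both were higher in K7M2-EV. Flt3 was at 0 in all PBS libraries and at 0.00673 to 0.00730 FPKM in K7M2-EV libraries. Cd209a was at 0 in all K7M2-EV libraries and at 0 to 0.03345 FPKM in PBS libraries. Of 9 neutrophil markers 3 were tested and 2, S100a8 and Camp, were higher, Camp having passed the filter only through the K7M2-EV libraries. The sums of the 9 were 39.6 to 44.8 FPKM in K7M2-EV and 3.17 to 6.10 FPKM in PBS. Ly6g and Cxcr2 were at 0 in all K7M2-EV libraries, and at 0 to 0.107 and 0.0890 to 0.155 FPKM in PBS libraries. The part of other cells in the receptor values was not tested.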

How the data were processed

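For each library the authors deposited a table of FPKM, with 26883 rows. Per the submitters' processing notes, StringTie 1.3.4b, HISAT2 2.1.0, edgeR, CASAVA 1.8 and the build GRCm38 were part of the processing, with no role or order stated. No source used here gives the strand setting. A row without a value (1) and 47 repeated symbols were dropped. Exon lengths from GENCODE release M21 matched 99.4% of 26835 genes. The spacing of low values implied 21340953 to 25694498 fragments per library, with 72.3% to 73.6% of values worth at most 20 fragments whole within 0.1 (chance 20%). In the K7M2-EV libraries 11878 to 12216 genes reached 1 FPKM, and in the PBS libraries 12864 to 13173.

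Differences were tested with limma 3.58.1 on log2(FPKM + 1) values of genes that reached 1 FPKM in 3 or more libraries (R 4.3.3, trend and robust settings, statmod 1.5.0), without a block, and Benjamini-Hochberg adjustment over 13009 genes. The steps were tested on simulated data. Tables and plots used Python 3.11.15, numpy 2.4.6, pandas 2.3.3 and matplotlib 3.10.9. The members and lists were chosen with earlier results of these data known. Lists are described by counts and medians. Named genes were the 8 members, up to 4 higher and 4 lower called genes per list by size of change, and the 3 nearest genes by level for each called member at 5 FPKM or more; some named genes are not reported here. The deviations from the group means correlated across genes between libraries with the same number (0.317, 0.294 and 0.209). The numbers may therefore pair the samples, which rests on these correlations since no label states it. The printed values come from the fit without the block, and the block was an alternative. Other pseudocounts, filters, scalings, voom, a replicate block and left-out libraries were tried.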

Additional observations from a re-analysis of the deposited data

How the results depend on the processing

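Of all 13009 genes, 2395 were called higher and 4631 lower. After median-of-ratios scaling 3789 were higher and 3066 lower, and the cause was not tested. Without both libraries of replicate 3, which leaves 2 libraries per group, 1531 were higher and 2847 lower. With 1 library left out, 1993 to 2416 were higher and 3896 to 4281 lower. In the fit with a replicate block, which follows the pairing of the numbers, 2495 were higher and 4787 lower. There the members stayed at 3 higher and 4 lower, as they did with any 1 library left out. The block changed no call of a gene named from the 6 related lists for the size of its change. Among the members, Stab1 lost its call in the 3 settings named beside its value and in no leave-one-out fit (adjusted p from 0.00277 to 0.0465). Cd163 was tested only with no filter, where it was called. With a filter on the mean over all libraries Olr1 was not tested, which left 2 higher members. Msr1, Cd36, Scarb1 and Mrc1 kept their calls and directions under all 17 alternatives. Marco did so too, and Olr1 under the 16 that tested it, but both passed the filter only through K7M2-EV, so this is no sign of stability. The members' log2 fold changes ranged from 0.76 to 1.02 for Msr1, -1.29 to -0.98 for Cd36, -0.64 to -0.38 for Scarb1, -0.76 to -0.42 for Stab1 and -3.66 to -3.13 for Mrc1. The value of Olr1 ran from 1.36 to 5.34, the highest in the voom fit on approximate reads. The values of Cd163 in the K7M2-EV libraries and of Olr1 in the PBS libraries rest on a few fragments each.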
